A study of Mus musculus with 37 samples.

Results

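The dual-specificity phosphatases that act on mitogen-activated protein (MAP) kinases were examined in mouse cortex through 10 genes, Dusp1, Dusp3, Dusp4, Dusp5, Dusp6, Dusp7, Dusp8, Dusp10, Dusp14 and Dusp16, out of 18193 genes with a probe set of their own. All probe sets annotated to 1 of these symbols alone were taken, 18 in total. Dusp3, Dusp7 and Dusp8 had 3 each, Dusp10 and Dusp16 had 2 each, and the other genes had 1 each. All 10 genes were kept, with no filter on low values, and each was represented by its brightest probe set. RNA from the cortex of 37 mice aged 9 weeks, labelled as CBA X C57Bl/6, was hybridised to Affymetrix arrays, 1 array per mouse, and the values are log2 levels. The mice were 9 WT, 9 Hdac4HET, which carry 1 null allele of Hdac4 in every cell, 9 R6/2, and 10 Dble::R6/2, which carry both the R6/2 transgene and 1 Hdac4 null allele. The R6/2 transgene expresses exon 1 of human huntingtin with an expanded CAG repeat from the human huntingtin promoter, so the mice model a fragment of the mutant protein and not the full-length gene. The Hdac4 null allele was made in another mouse strain, so chromosome segments of that strain beside Hdac4 can accompany it. Both sexes were present. Gene positions below are on GRCm38.p6.

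MAP kinases (ERK, JNK and p38) are switched on when a threonine and a tyrosine in their activation loop are both phosphorylated. Dual-specificity phosphatases remove both phosphates and so switch the kinase off. Several of their genes are themselves transcribed in response to MAP kinase activity, which makes them feedback inhibitors, and in cortical neurons they belong to the programme that follows synaptic activity. Dusp1, Dusp4 and Dusp5 encode inducible nuclear enzymes, Dusp6 and Dusp7 encode cytoplasmic enzymes selective for ERK, and Dusp8, Dusp10 and Dusp16 encode enzymes that prefer JNK and p38. Dusp3 and Dusp14 encode small atypical members that lack the kinase-binding domain of the others.

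The level of Hdac4 followed the labels, at 8.28 to 8.64 in WT, 8.31 to 8.55 in R6/2, 7.8 to 8.02 in Hdac4HET and 7.7 to 7.98 in Dble::R6/2. In 7 arrays (6 Hdac4HET and 1 Dble::R6/2) the mean of 13 olfactory bulb markers lay above that of every WT array, and in 6 arrays the sex-linked genes went against the labelled sex. Of these 6, 4 had the pattern of the other sex. The other 2, Hdac4HET replicates 5 and 9, had both Xist (11.21 and 11.67) and the Y-linked genes (mean 6.56 and 5.89) at high levels, although each array is labelled as 1 mouse. Both are also among the arrays high in bulb markers. Calls that change when either set is left out are given both ways. Arrays of 1 genotype correlated at 0.993 to 0.998 over all probe sets. In whole cortex, fewer cells of a type and less RNA per cell cannot be told apart.

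Upstream sequence of 3 genes is shown because their promoters held the full-length motifs of activity-regulated transcription that were searched for, other than a MEF2 motif in Dusp16, and because the genes differed in how much their levels moved between genotypes. The sequences are the 250 bases before the start used for each gene, 5′ to 3′ on its strand, from RefSeq (GRCm38.p6), with the motifs in capitals. For Dusp1 and Dusp5 this start is the 5′ end of the gene position given below. For Dusp8 it lies inside that position, so the Dusp8 sequence is also inside it. The capitals mark the cAMP response element TGACGTCA in Dusp1 and Dusp8, and a pair of adjoining CArG boxes, the element bound by serum response factor, in Dusp5.
Dusp1, chr17:26508473-26508722, minus strand: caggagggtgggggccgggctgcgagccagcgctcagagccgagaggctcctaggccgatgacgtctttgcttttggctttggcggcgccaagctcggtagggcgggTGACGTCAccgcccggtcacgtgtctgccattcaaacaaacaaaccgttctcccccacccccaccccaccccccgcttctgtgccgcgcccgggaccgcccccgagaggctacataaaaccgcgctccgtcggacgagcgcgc
Dusp5, chr19:53528895-53529144, plus strand: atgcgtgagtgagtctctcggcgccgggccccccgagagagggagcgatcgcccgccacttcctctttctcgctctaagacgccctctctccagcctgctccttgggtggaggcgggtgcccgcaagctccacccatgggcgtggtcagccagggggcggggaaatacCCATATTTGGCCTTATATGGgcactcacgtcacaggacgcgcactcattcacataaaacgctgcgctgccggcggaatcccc
Dusp8, chr7:142095285-142095534, minus strand: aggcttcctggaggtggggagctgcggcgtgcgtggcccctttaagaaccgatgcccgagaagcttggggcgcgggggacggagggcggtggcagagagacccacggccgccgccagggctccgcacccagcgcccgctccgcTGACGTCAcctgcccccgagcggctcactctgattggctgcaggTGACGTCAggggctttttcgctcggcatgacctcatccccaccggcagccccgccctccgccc

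Sequence was given for 9 of the 10 genes, and Dusp4 was not analysed here in this respect. The starts used for Dusp3, Dusp7, Dusp8, Dusp14 and Dusp16 lay inside the gene positions given below, and distances are from the starts used. Over windows of 300 bases, 250 before and 50 after the start, and on both strands, the Dusp1 window held 1 cAMP response element whose first base lay at -143. The Dusp8 window held 2, at -107 and -63. This element occurred in 1.79% of 32851 promoters. Its shorter core, TGACG or CGTCA, which lies within the full element, was also found at -191 in Dusp1, at -55 in Dusp5 and at -70 in Dusp16, and occurred in 20.8% of promoters. The CArG boxes of Dusp5 lay at -82 and -72, and 1.63% of promoters held a CArG box. The Dusp16 window held a MEF2 motif at -57, found in 3.19% of promoters. None of these motifs was matched in the windows of Dusp3, Dusp6, Dusp7, Dusp10 or Dusp14. A match describes the letters only.

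The first comparison, R6/2 against WT, asked how the phosphatase genes differed in cortex with the transgene. Dusp1, Dusp6, Dusp7 and Dusp14 were lower in R6/2, at 0.727 (Dusp6) to 0.598 (Dusp1) of the WT level, and no gene of the family was higher past the same limits. A gene was called when its Benjamini-Hochberg adjusted p from limma, adjusted across the 45037 probe sets, fell below 0.05 with a difference in level of more than 1.3-fold. By this rule 4 of 10 genes were lower and 0 higher, where 3.03% of all probe sets were lower and 3.05% were higher. By adjusted p alone, 9 genes were lower and 1 was higher, where 17.6% of all probe sets were lower and 21.3% were higher. Counted by the brightest probe set of each gene, 3340 of 18193 genes were lower and 5112 higher by adjusted p alone, and 600 lower and 683 higher past both limits. The median change of the 10 genes was -0.35 on the log2 scale, against 0 over all genes by their brightest probe set.

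**Figure D1:**
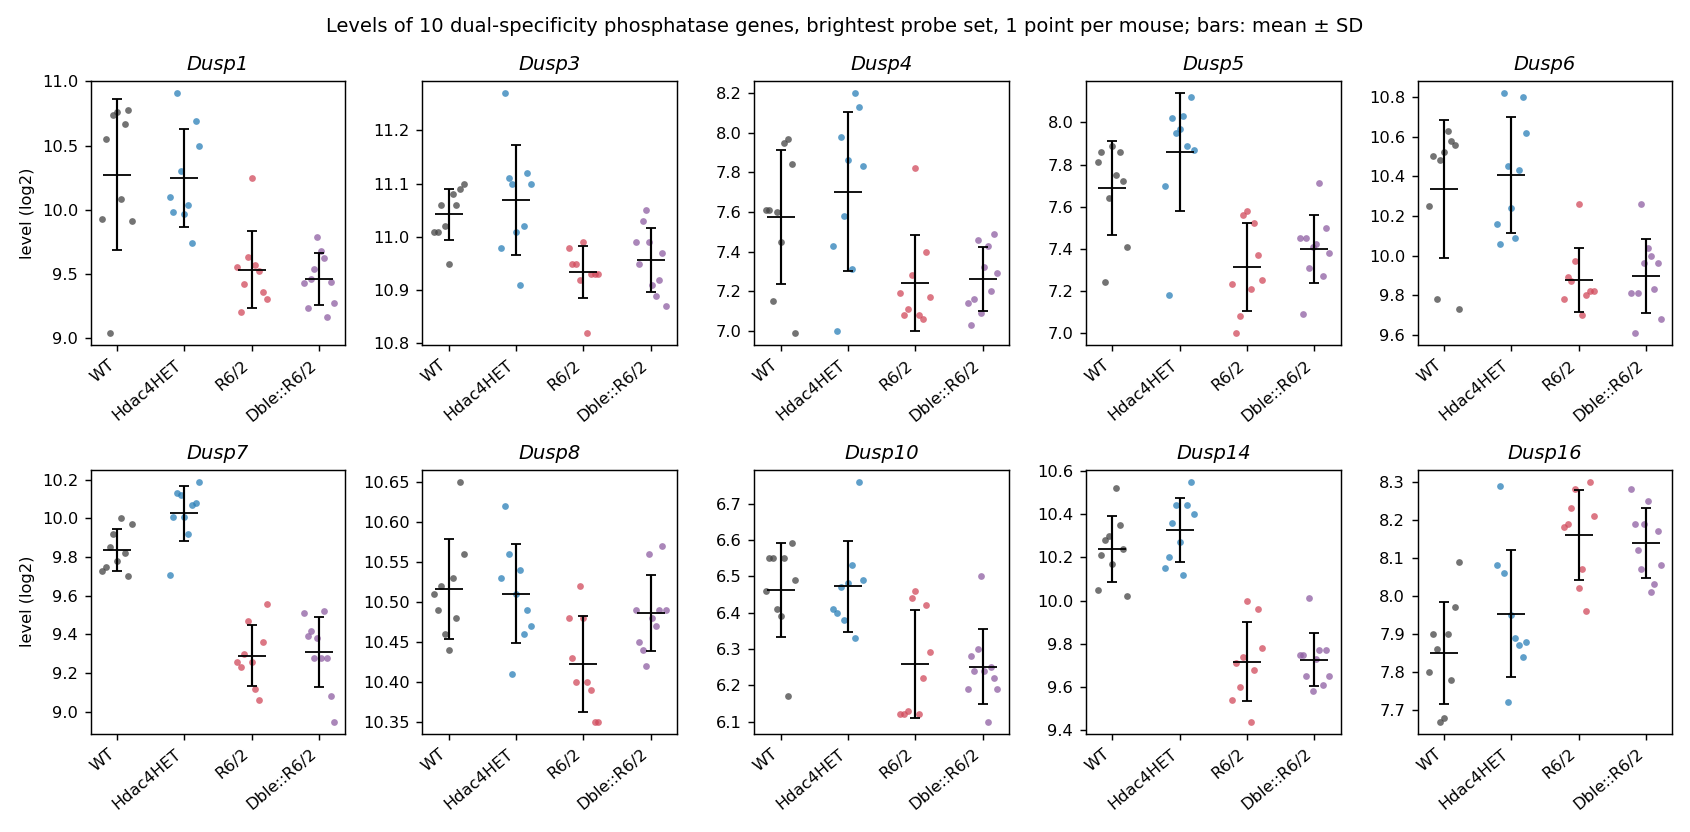
Level (log2) of each of the 10 genes by its brightest probe set in the 4 genotypes, 1 point per mouse, with the mean and SD as bars and a separate vertical scale in each panel. In Dusp7 all 9 R6/2 mice, at 9.06 to 9.56, lie below all 9 WT mice, at 9.7 to 10, whereas in Dusp1 the 2 groups overlap.

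Dusp1 (chr17:26505591-26508472), the early-induced nuclear phosphatase of all 3 kinase families, had the largest difference of the 10. Its level in WT mice ran from 9.04 to 10.78 with a median of 10.55. In R6/2 mice it ran from 9.2 to 10.25 with a median of 9.52. A single mouse on each side made the groups overlap. WT replicate 3 stood at 9.04, where the next WT mouse was at 9.91, and R6/2 replicate 5 stood at 10.25, where the next R6/2 mouse was at 9.63. The difference was -0.74 (SE 0.17, limma adjusted p = 0.000578), and it was -0.9 without that WT mouse and -0.83 without that R6/2 mouse. In Hdac4HET mice Dusp1 lay between 9.74 and 10.91 (median 10.1), and in Dble::R6/2 mice between 9.16 and 9.79 (median 9.45).

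Dusp4 (chr8:34807610-34819894), an inducible nuclear phosphatase, was more variable relative to its difference. It ran from 6.99 to 7.97 in WT (median 7.61) and from 7.06 to 7.82 in R6/2 (median 7.17). The groups overlapped over nearly their whole ranges, with R6/2 replicate 5 again the highest of its group and the next R6/2 mouse at 7.4. The difference of -0.33 (SE 0.13, limma adjusted p = 0.0423) was short of the 1.3-fold limit. In Hdac4HET mice Dusp4 ran from 7 to 8.2 (median 7.83), and in Dble::R6/2 mice from 7.03 to 7.49 (median 7.25).

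Dusp5 (chr19:53529145-53541809), a nuclear phosphatase selective for ERK, ran from 7.24 to 7.89 in WT (median 7.75) and from 7 to 7.58 in R6/2 (median 7.25). In 4 of 9 R6/2 mice it lay below every WT mouse. The difference was -0.38 (SE 0.1, limma adjusted p = 0.00225), which before rounding was just inside the log2 limit of 0.3785. In Hdac4HET mice Dusp5 ran from 7.18 to 8.12 (median 7.95) and in Dble::R6/2 mice from 7.09 to 7.71 (median 7.41). Leaving out any 1 of 7 arrays brought Dusp5 past the limit, at -0.38 to -0.43, and leaving out any 1 of 3 arrays did the same for Dusp4, at -0.39 to -0.41. Without the 6 arrays whose sex-linked genes went against the label both were called lower, Dusp4 at -0.41 (limma adjusted p = 0.0156) and Dusp5 at -0.41 (limma adjusted p = 0.00241), which made 6 of 10 genes. WT replicate 9 was the only such array in R6/2 or WT, and leaving it out alone also gave -0.41 for each gene.

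The cytoplasmic ERK phosphatases were both called lower. Dusp6 (chr10:99263231-99267489) ran from 9.73 to 10.63 in WT (median 10.5) and from 9.7 to 10.26 in R6/2 (median 9.82). Only the lowest R6/2 mouse was below every WT mouse, since WT replicate 9 stood at 9.73. The difference was -0.46 (SE 0.11, limma adjusted p = 0.00119). Dusp6 ran from 10.06 to 10.82 in Hdac4HET mice (median 10.43) and from 9.61 to 10.26 in Dble::R6/2 mice (median 9.89).

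Dusp7 (chr9:106368560-106375724) separated the genotypes. It ran from 9.7 to 10 in WT (median 9.82) and from 9.06 to 9.56 in R6/2 (median 9.26), so that all 9 R6/2 mice lay below all WT mice. The share of all probe sets with such a separation was not counted, here or in the other comparisons. The difference was -0.55 (SE 0.07, limma adjusted p = 2.03e-08). Its less bright probe sets, which measure the same gene and are not further replicates, differed by -0.58 and -0.44, also without overlap. In Hdac4HET mice Dusp7 ran from 9.71 to 10.19 (median 10.07), and in Dble::R6/2 mice from 8.95 to 9.52 (median 9.33).

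The phosphatases of JNK and p38 differed less, and 1 of them in the opposite direction. Dusp8 (chr7:142079487-142095907), a neuronal enzyme whose window held the 2 cAMP response elements shown above, ran from 10.44 to 10.65 in WT (median 10.51) and from 10.35 to 10.52 in R6/2 (median 10.4). In 6 of 9 R6/2 mice it was below every WT mouse, yet the difference was only -0.09 (SE 0.03, limma adjusted p = 0.00909). Dusp8 ran from 10.41 to 10.62 in Hdac4HET mice (median 10.51) and from 10.42 to 10.57 in Dble::R6/2 mice (median 10.49). Of its less bright probe sets, 1 passed the adjusted p at -0.12 and the other, at -0.07, did not.

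Dusp10 (chr1:184034381-184075636), which dephosphorylates JNK and p38, ran from 6.17 to 6.59 in WT (median 6.49) and from 6.12 to 6.46 in R6/2 (median 6.22). In 4 of 9 R6/2 mice it lay below all WT mice. The difference was -0.2 (SE 0.06, limma adjusted p = 0.00702), and -0.15 on its dimmer probe set. Dusp10 ran from 6.33 to 6.76 in Hdac4HET mice (median 6.47) and from 6.1 to 6.5 in Dble::R6/2 mice (median 6.24).

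Dusp16 (chr6:134715468-134807063), a phosphatase of JNK, was the only 1 of the 10 genes whose level was higher in R6/2. It ran from 7.67 to 8.09 in WT (median 7.86) and from 7.96 to 8.3 in R6/2 (median 8.19), and 6 of 9 R6/2 mice were above every WT mouse. The difference was 0.31 (SE 0.06, limma adjusted p = 5.95e-05), short of the fold limit. Dusp16 ran from 7.72 to 8.29 in Hdac4HET mice (median 7.89) and from 8.01 to 8.28 in Dble::R6/2 mice (median 8.15). A second probe set of Dusp16 was dim, at 3.23 to 3.55 in WT against a 5th percentile of 3.22 over all probe sets. There R6/2 mice stood at 3.47 to 3.8, higher by 0.3 (limma adjusted p = 0.000625).

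The atypical members went different ways in size. Dusp14 (chr11:84048033-84069256), an atypical phosphatase, ran from 10.02 to 10.52 in WT (median 10.24) and from 9.44 to 10 in R6/2 (median 9.71), with no overlap. The difference was -0.52 (SE 0.07, limma adjusted p = 5.72e-08). Dusp14 ran from 10.12 to 10.55 in Hdac4HET mice (median 10.36) and from 9.58 to 10.01 in Dble::R6/2 mice (median 9.74).

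Dusp3 (chr11:101971141-101987013), which dephosphorylates ERK and JNK, had narrow groups, at 10.95 to 11.1 in WT (median 11.06) and 10.82 to 10.99 in R6/2 (median 10.93). In 7 of 9 R6/2 mice it lay below every WT mouse, with a difference of -0.11 (SE 0.03, limma adjusted p = 0.00608). Dusp3 ran from 10.91 to 11.27 in Hdac4HET mice (median 11.1) and from 10.87 to 11.05 in Dble::R6/2 mice (median 10.96). A less bright probe set of Dusp3 differed more, by -0.29 (limma adjusted p = 0.0135), from 7.57 to 8.25 in WT to between 7.3 and 7.87 in R6/2. The other less bright probe set differed by -0.1 (limma adjusted p = 0.159).

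**Figure D2:**
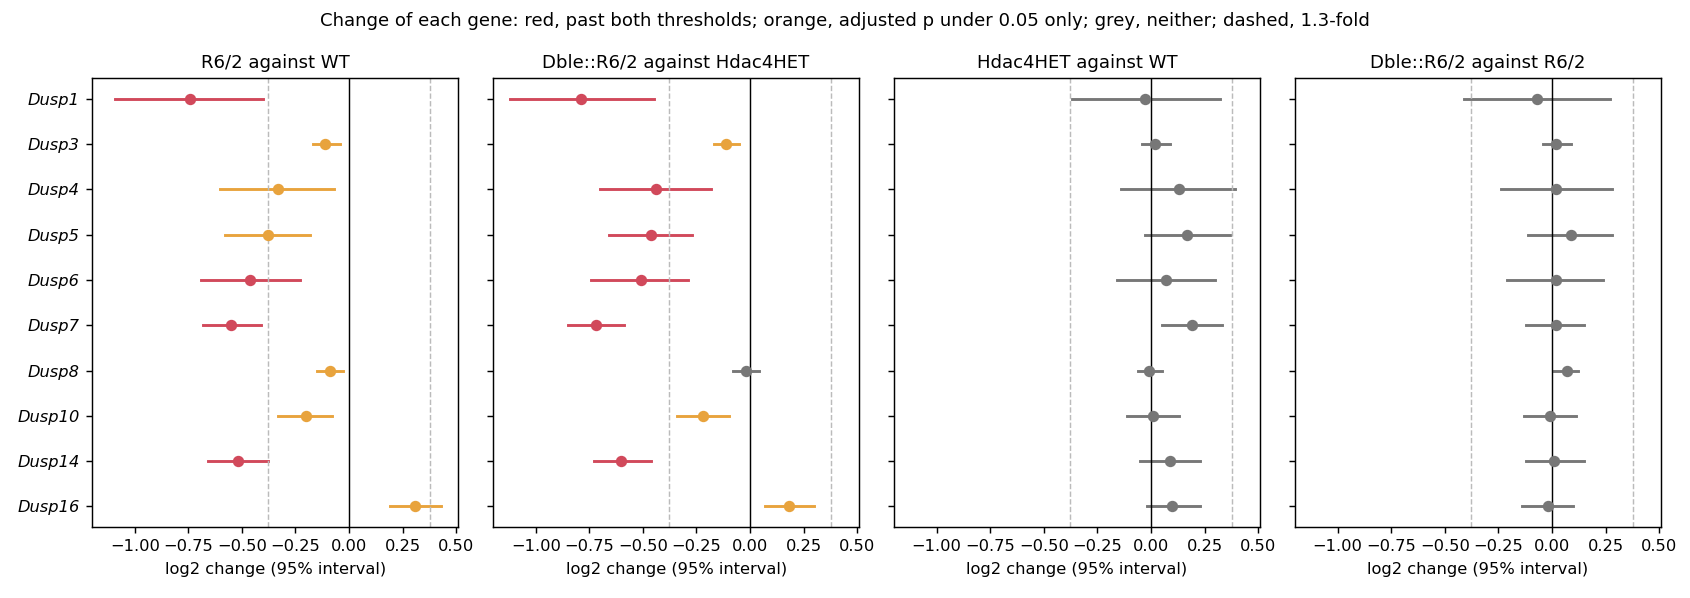
Log2 change of each gene (points) with its 95% interval (lines) in 4 comparisons, with dashed lines at 1.3-fold. The 4 red points in R6/2 against WT and the 6 in Dble::R6/2 against Hdac4HET are all lower, and the other comparisons have none.

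The transgene was also compared on the Hdac4HET background, in mice none of which enter R6/2 against WT, although the fit shares its estimate of the spread. In Dble::R6/2 mice Dusp1, Dusp4, Dusp5, Dusp6, Dusp7 and Dusp14 were lower than in Hdac4HET mice. These are 6 of 10 genes lower and 0 higher, where 5.07% of all probe sets were lower and 2.02% were higher. By adjusted p alone 8 genes were lower and 1, Dusp16, was higher, against 15.6% and 21.2% of all probe sets. The median change was -0.45, against 0.04 over all genes. Dusp7 differed by -0.72 (SE 0.07, limma adjusted p = 2.01e-11) and Dusp14 by -0.6 (limma adjusted p = 1.78e-09), and in both all 10 Dble::R6/2 mice lay below all 9 Hdac4HET mice. Dusp1 differed by -0.79 (SE 0.17, limma adjusted p = 0.000208) and Dusp6 by -0.51 (limma adjusted p = 0.000245), with 9 of 10 Dble::R6/2 mice below every Hdac4HET mouse for each.

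Dusp5 differed by -0.46 (limma adjusted p = 0.000171) and Dusp4 by -0.44 (limma adjusted p = 0.00583), and their groups overlapped. Both calls were lost when the 7 arrays high in olfactory bulb markers were set aside, which left 3 Hdac4HET mice. Dusp5 then stood at -0.38 (limma adjusted p = 0.07) and Dusp4 at -0.44 (limma adjusted p = 0.089). Dusp1, Dusp6, Dusp7 and Dusp14 remained called without them, at -1.04, -0.64, -0.72 and -0.63. Of 13 bulb markers, 11 were lower in Dble::R6/2 than in Hdac4HET mice, where 5.07% of all probe sets were. Their mean level was 5.31 to 6.29 in Dble::R6/2 and 5.45 to 7.79 in Hdac4HET mice, and their part in the result was not tested. Dusp8 differed by -0.02 (95% interval -0.08 to 0.04), Dusp3 by -0.11, Dusp10 by -0.22 and Dusp16 by 0.18. The less bright Dusp3 probe set passed both limits here, at -0.41 (limma adjusted p = 0.000405). The dim probe set of Dusp16 did not, at 0.01 (95% interval -0.12 to 0.15), nor did that of Dusp10, at 0.02.

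Reduced Hdac4 alone was tested in Hdac4HET against WT. By the limma test 0 of 10 genes were called, where 0.291% of all probe sets were called, and 0 passed the adjusted p, where 1.43% did. At an unadjusted p under 0.05, Dusp7 was the only gene by its brightest probe set, at 0.19 (SE 0.07, p = 0.00737, limma adjusted p = 0.136), and 7 of 9 Hdac4HET mice lay above every WT mouse. With all arrays, the 95% intervals of the 10 genes ran from -0.37 (lower bound of Dusp1) to 0.39 (upper bound of Dusp4). In that fit a change above 1.3-fold was left within the interval of Dusp4 and was outside those of the other genes. These intervals include the 6 Hdac4HET arrays high in bulb markers. Over the alternatives the difference ran from -0.04 to 0.25 for Dusp1 and from 0.03 to 0.22 for Dusp6, and 0 genes were called.

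The effect of reduced Hdac4 in mice with the transgene was tested in Dble::R6/2 against R6/2. By the limma test 0 of 10 genes were called, where 0.269% of probe sets were called, and 0 passed the adjusted p by the brightest probe set, where 1.99% did. Of all 18193 genes by their brightest probe set, 12 were called lower and 4 higher. The largest difference in a brightest probe set was 0.09 in Dusp5 (95% interval -0.11 to 0.28). Dusp8 alone had an unadjusted p under 0.05, at 0.07 (95% interval 0.01 to 0.12, p = 0.0235, limma adjusted p = 0.21). For Dusp7 the difference was 0.02 (95% interval -0.12 to 0.15) and for Dusp14 it was 0.01 (95% interval -0.12 to 0.15). For Dusp1, with its wide spread, it was -0.07 (95% interval -0.41 to 0.27). The dim Dusp16 probe set passed the adjusted p at -0.26 (limma adjusted p = 0.0336), at levels of 3.15 to 3.81 in Dble::R6/2 against 3.47 to 3.8 in R6/2, with 7 of 10 Dble::R6/2 mice below all R6/2 mice, while the brightest probe set of Dusp16 differed by -0.02 (limma adjusted p = 0.897).

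Dble::R6/2 and WT mice were compared last, a comparison that shares its WT mice with R6/2 against WT and its Dble::R6/2 mice with the others. Here 4 genes were lower and 0 higher, where 4.09% of probe sets were lower and 2.59% were higher, and by adjusted p alone 7 were lower and 1 higher, against 17.2% and 22.6%. The called genes were Dusp1 (-0.81), Dusp6 (-0.44), Dusp7 (-0.53) and Dusp14 (-0.51), and in Dusp7 and Dusp14 the groups did not overlap. Dusp4 differed by -0.31 (limma adjusted p = 0.0505), Dusp5 by -0.29 (limma adjusted p = 0.0155) and Dusp16 by 0.29 (limma adjusted p = 0.000105). On the dim probe set of Dusp16 the difference was 0.04 (limma adjusted p = 0.716). Without the 6 arrays whose sex-linked genes went against the label Dusp4 was called, at -0.4 (limma adjusted p = 0.0222), which made 5 genes. Leaving out WT replicate 9 alone, an array of that set, also brought the call, at -0.38. The less bright Dusp3 probe set was called at -0.46 (limma adjusted p = 0.000103). In the interaction, which tests whether the R6/2 difference depends on Hdac4 dose, 0 of 10 genes were called by limma, where 0.251% of probe sets were called, and 0 passed the adjusted p, where 0.968% did. No brightest probe set had an unadjusted p under 0.05. The lowest was for Dusp7, at -0.17 (95% interval -0.36 to 0.02, p = 0.0718, limma adjusted p = 0.307), and that of Dusp1 spanned -0.53 to 0.44.

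Mice of 1 genotype differed most in the inducible members. The within-genotype SD was 0.39 for Dusp1, higher than that of 98.7% of probe sets, 0.3 for Dusp4, 0.26 for Dusp6 and 0.22 for Dusp5. It was 0.15 for Dusp7 and Dusp14, 0.13 for Dusp10 and Dusp16, 0.07 for Dusp3 and 0.06 for Dusp8, which only 3.8% of probe sets undercut. The variable genes varied together. With the genotype means subtracted, Dusp4 and Dusp6 correlated over 37 mice with Pearson's r of 0.8 (Spearman's rho 0.76), and with r of 0.76 without the 2 mice farthest in Dusp4. Within each genotype this r was 0.9 in WT, 0.77 in Hdac4HET, 0.85 in R6/2 and 0.67 in Dble::R6/2. For Dusp1 and Dusp6, r was 0.77 (rho 0.76, and r of 0.7 without the 2 farthest mice), and 0.66 to 0.82 within genotypes. Of 45 pairs of the 10 genes, 8 had r above 0.5 and 12 had r below 0, with a median of 0.16. The r of Dusp1 with all genes measured had a median of -0.01. Of those 8, only Dusp8 with Dusp16 (r = 0.55) lay outside Dusp1, Dusp4, Dusp5, Dusp6 and Dusp14, and its r was 0.91 in Hdac4HET but -0.07 in R6/2. Values of 1 mouse share the dissection, the RNA and the array, and these correlations are descriptions with no test.

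For each member, the 3 genes most like it were taken by correlation across the 37 mice, with genotype means subtracted. Dusp1 was most like Arc (r = 0.94), which encodes a synaptic regulator of glutamate receptor uptake, then Nr4a1 and Junb (r = 0.92 each), both immediate early transcription factors. Dusp6 was most like Egr2 (r = 0.93), another such factor, then Nr4a1 and Klf10 (r = 0.91 each). Dusp4 was most like Fosb and Dnajb5 (r = 0.86 each) and Bhlhe40 (r = 0.85). Dusp5 was less close to any gene, with Per1 (r = 0.73), a clock gene, first, then Tiparp (r = 0.72) and Spty2d1 (r = 0.71). Dusp14 was most like Vps13a (r = 0.87), Etv5 (r = 0.83), a transcription factor, and Ier5 (r = 0.82). Dusp7 was most like Septin8 (r = 0.84), a cytoskeletal gene, Sbno1 (r = 0.83) and Lrrc4 (r = 0.81), which encodes a postsynaptic adhesion protein. Dusp3 was most like R3hdm1, Dop1b and Cdk5r2 (r = 0.78 each). Dusp8 was most like Ptp4a3, BC005624 and Csrnp2 (r from 0.76 to 0.77). Dusp10 was most like Trp53inp2 (r = 0.7), then the myelin gene Mag and Inf2 (r = 0.63 each), and Dusp16 was most like Hs3st4 (r = 0.69), Hip1r and Srpk3 (r = 0.68 each).

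**Figure D3:**
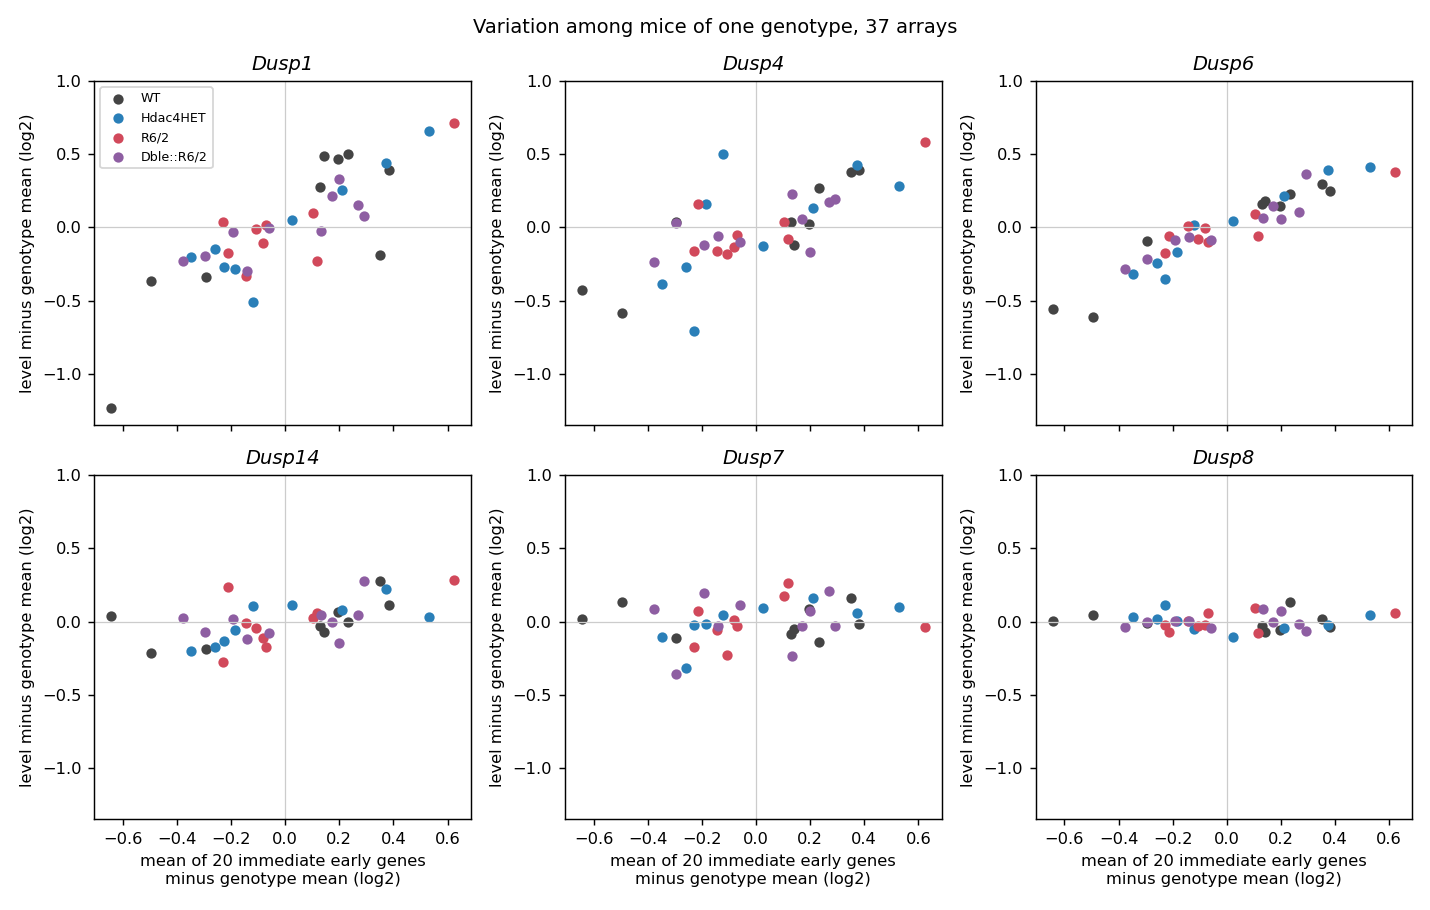
Level of 6 of the genes minus the mean of their genotype (vertical axis, log2) against the mean of 20 immediate early genes, treated the same way (horizontal axis, log2), 1 point per mouse and coloured by genotype. Dusp6 follows the immediate early mean closely (r = 0.94), Dusp7 loosely (r = 0.23) and Dusp8 hardly at all (r = 0.03).

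Immediate early genes are transcribed within minutes of neuronal activity without new protein synthesis. A list of 20 of them, none of which is a phosphatase, was set beside the family. Over the 37 mice, their mean correlated with Dusp6 at r = 0.94 (rho 0.94, and 0.91 to 0.97 within genotypes), with Dusp1 at r = 0.83 (rho 0.8), with Dusp4 at r = 0.73 (rho 0.71), and with Dusp5 and Dusp14 at r = 0.58 each (rho 0.51 and 0.6). Without the 2 mice farthest in the immediate early mean these were 0.93, 0.78, 0.68, 0.55 and 0.54. Taken singly, 16 of the 20 genes had r above 0.5 with Dusp6, 13 with Dusp4, 11 with Dusp1 and 9 each with Dusp5 and Dusp14. Jun had a negative r with each of these phosphatase genes, from -0.51 (Dusp14) to -0.2 (Dusp1), and Nptx2 ran from -0.31 (Dusp5) to 0.03 (Dusp14). For Dusp7 and Dusp3 r was 0.23, for Dusp10 0.19, for Dusp8 0.03 and for Dusp16 -0.25. In Dble::R6/2 against Hdac4HET, 15 of the 20 genes were lower, where 5.07% of all probe sets were. In R6/2 against WT, 14 were lower and 0 higher, where 3.03% of all probe sets were lower and 3.05% were higher, with a median of -0.56 against 0 over all genes. By the lowest adjusted p these were Nptx2 (-1.01), Ptgs2 (-1.07), Nr4a2 (-0.46) and Egr3 (-0.58). Egr2 differed by -2.06 (limma adjusted p = 6.33e-05), Arc by -1.11, Junb by -0.83 and Nr4a1 by -0.64, all past both limits, whereas Fosb, the closest gene to Dusp4, differed by 0.22 (limma adjusted p = 0.214).

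The immediate early mean level ran from 8.53 to 9.55 in WT (median 9.31), from 8.82 to 9.7 in Hdac4HET (median 9.05), from 8.3 to 9.15 in R6/2 (median 8.45) and from 8.14 to 8.81 in Dble::R6/2 (median 8.55). R6/2 replicate 5 had the highest value of its group, 9.15, and was also the highest R6/2 mouse for Dusp1, Dusp3, Dusp4, Dusp5, Dusp6, Dusp10 and Dusp14. WT replicate 3, the lowest of its group at 8.53, was the lowest WT mouse for Dusp1 and Dusp5, and WT replicate 9, at 8.67, was the lowest for Dusp4, Dusp6 and Dusp14. The part of this variation in the differences between genotypes was not tested.

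The other components of the pathway were counted by lists, in R6/2 against WT unless stated, with the background given above. Of 16 other dual-specificity phosphatases 1 was lower and 0 higher (median -0.08), namely Dusp18, at -0.63 (SE 0.1, limma adjusted p = 3.73e-06) and -0.73 in Dble::R6/2 against Hdac4HET. Of the tyrosine phosphatases that also act on MAP kinases, 2 were measured and 0 called. They were Ptpn5, a striatum-enriched enzyme, at -0.16 (limma adjusted p = 0.00133), and Ptprr, at -0.06 (limma adjusted p = 0.362). Of 12 MAP kinases measured, 2 were lower and 0 higher (median -0.16). These were Mapk12, a p38 isoform, at -0.59 (SE 0.06, limma adjusted p = 1.88e-09), and Mapk4, an atypical kinase related to ERK, at -0.58 (SE 0.09, limma adjusted p = 1.04e-06).

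Upstream of the kinases the lists had few calls. Of 6 MAP kinase kinases 0 were called (median 0.09), with Map2k6 at 0.22 and Map2k5 at 0.13. Of 14 MAP kinase kinase kinases 1 was higher, Map3k10, which activates JNK, at 0.46 (SE 0.06, limma adjusted p = 2.03e-08). Of 10 genes of Ras and its regulators 2 were lower and 1 higher. The exchange factors Rasgrf2, at -0.59 (limma adjusted p = 7.74e-15), and Rasgrp2, at -0.68 (limma adjusted p = 1e-06), were lower, and Sos1, a further exchange factor, was higher at 0.43 (limma adjusted p = 3.77e-13). Of 7 Sprouty and Spred genes, which like Dusp6 encode feedback inhibitors of ERK signalling, 0 were called (median 0.04), with Spry3 at 0.37 and Spred3 at 0.29. Of 8 kinases activated by MAP kinases 1 was higher, Rps6ka6, at 0.57 (limma adjusted p = 1.42e-06). Of 7 scaffolds 0 were called, with Mapk8ip2 at 0.22 and Mapk8ip1 at -0.13. The 10 phosphatase genes had the lowest median among these lists other than the immediate early genes.

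**Figure D4:**
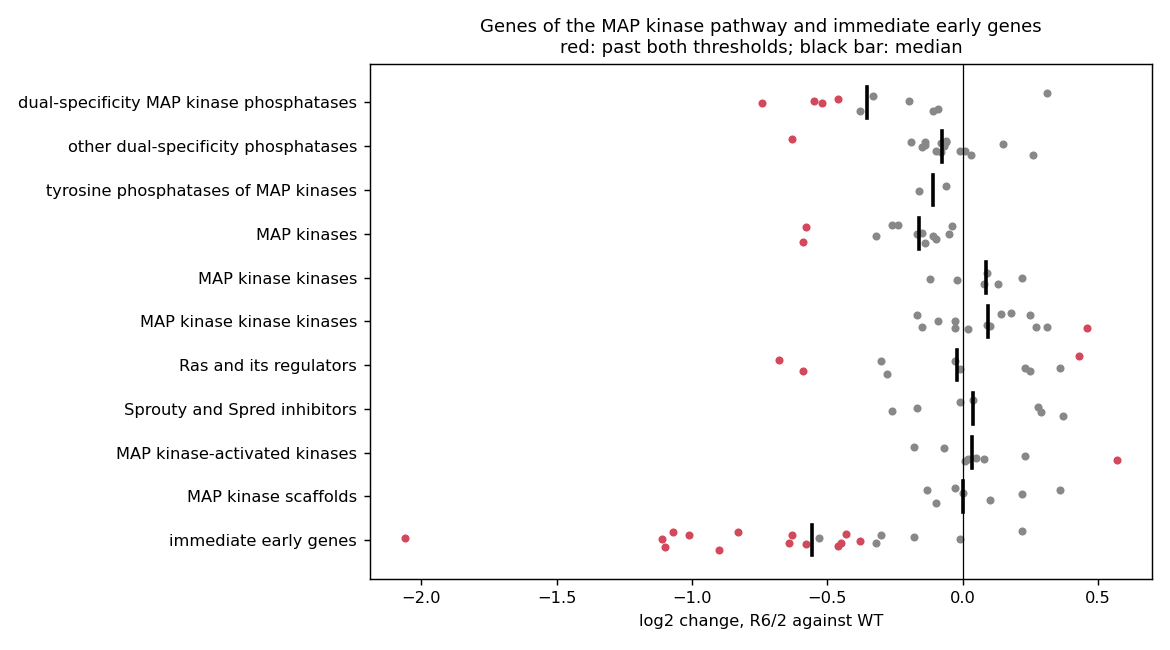
Log2 change in R6/2 against WT (horizontal axis) of each gene of the lists named on the vertical axis, 1 point per gene, red where both limits were passed, with the median as a black bar. The median of the dual-specificity MAP kinase phosphatases is -0.35 and that of the immediate early genes -0.56, and the medians of the other lists lie between -0.16 and 0.09.

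Markers of cell types also differed between these groups. In R6/2 against WT, 1 of 9 cortical neuron markers, 0 of 10 astrocyte markers, 2 of 9 oligodendrocyte markers, 0 of 10 microglia markers and 7 of 8 striatal neuron markers were lower past both limits, where 3.03% of all probe sets were. By adjusted p alone 7 of the cortical neuron markers, 7 of the astrocyte markers (median -0.28), 7 of the oligodendrocyte markers and 5 of the microglia markers were lower, where 17.6% of all probe sets were. Of 10 endothelial and pericyte markers 5 were higher by adjusted p alone, where 21.3% of all probe sets were, and 5112 of 18193 genes by their brightest probe set. The cortical neuron list, which includes general neuronal genes such as Snap25 and Syt1, had a mean of 11.74 to 11.9 in WT. In R6/2 it was 11.53 to 11.7, and the 2 ranges do not overlap. On the linear scale the summed level of the list was 51200 to 56000 in WT and 44200 to 47700 in R6/2. Within it, Tbr1 at -0.03 (limma adjusted p = 0.77) and Neurod6 at 0.01 (limma adjusted p = 0.969) did not pass the adjusted p. The striatal mean was 8.74 to 9.82 in WT, 9.34 to 10.04 in Hdac4HET, 8.11 to 9.17 in R6/2 and 8.47 to 9 in Dble::R6/2, and the astrocyte mean was 10.73 to 10.84 in WT and 10.47 to 10.65 in R6/2. Their part in the differences of the phosphatase genes was not tested.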

How the data were processed

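RNA from 37 cortices was measured on Affymetrix Mouse Genome arrays, 1 per mouse, and GEO's titles gave each mouse its genotype and replicate number. Log2 values were deposited by the authors as 1 table for 45037 probe sets, and 0 of its value columns lacked a sample. Per the methods, chips of low quality were excluded with RACE, and the step from scanned probes to log2 values is not stated there or in the labels. All 37 deposited arrays were used. The study's own array analysis used fewer, and the labels do not say which it left out, so some arrays here may be ones it excluded. Array medians lay between 6.16 and 6.21, and no further normalization was applied. The number of arrays limits the precision. Platform annotation gave 34945 probe sets 1 symbol, 932 several and 9160 none here, and only those with 1 symbol were named. Some kinase genes had none and were not analysed here.

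The 4 genotype means were estimated jointly from the 37 arrays with limma 3.58.1 in R 4.3.3 (lmFit, eBayes with a trend). Adjusted p values come from this fit, or from the same model refitted where left-out arrays or another alternative is named. Benjamini-Hochberg adjustment was over all probe sets. Changes are the first group minus the second. The fit was also run on simulated data with independent noise in each probe set. These held none of the shared variation or doubtful arrays described above. Figures and promoter searches used Python 3.11.15 with matplotlib 3.10.9.

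The 10 genes and the lists were chosen with earlier results of these data known. By rule, all 10 genes were named, with less bright probe sets where their call or sign differed, up to 4 called genes of each list with the lowest adjusted p (or, without calls, the 2 with the smallest p), and the 3 genes most like each member. Further immediate early genes were named because they were among the most alike. Other less bright probe sets were named after their values were seen. Alternatives were quantile normalization, a filter on dim probe sets, the methods' t-test, fits restricted to a pair of genotypes, sex as a covariate, a replicate block, array weights, no fold threshold, the mean of a gene's probe sets, and leaving out doubtful arrays or each array in turn. Separate animals gave the replicates.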

Additional observations from a re-analysis of the deposited data

Results flagged for a closer look

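Each of the 10 genes was examined in each of the 4 genotypes for a mouse standing apart, by Dixon's test of the gap to the next mouse, and 10 such values were found in 40 groups. Chance flags about 1 in 20 groups, and values of 1 mouse in several genes are not independent. R6/2 replicate 5 stood above its group in Dusp1 (10.25, next 9.63), Dusp4 (7.82, next 7.4) and Dusp6 (10.26, next 9.97). WT replicate 3 stood below its group in Dusp1 (9.04, next 9.91). Hdac4HET replicate 2 was low in Dusp5 (7.18, next 7.7), and R6/2 replicate 6 was low in Dusp3 (10.82, next 10.92). Dusp10 had 1 such mouse in each of 3 genotypes, WT replicate 7 (6.17, next 6.39), Hdac4HET replicate 8 (6.76, next 6.53) and Dble::R6/2 replicate 5 (6.5, next 6.3). Dble::R6/2 replicate 4 was high in Dusp14 (10.01, next 9.77). In the interaction, 0 of the 10 genes had an adjusted p under 0.05.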

How the results depend on the processing

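Of 640 gene changes recomputed under the alternatives other than leaving out single arrays, 620 kept their side of the limits. This total takes in Hdac4HET against WT, Dble::R6/2 against R6/2 and the interaction, where 0 genes were called in the main fit or any alternative. It therefore overstates how stable the called changes were. The call was lost in 2 and gained in 18, and 0 changes called in either fit reversed. Changes called in neither fit were not checked for sign, and some near 0 changed it. Dusp1 in Hdac4HET against WT, at -0.03 in the main fit, ran from -0.04 to 0.25. Without a fold threshold, where a call can only be gained, the count of called genes was 10 in R6/2 against WT and 8 in Dble::R6/2 against WT. Both lost calls were Dusp4 and Dusp5 in Dble::R6/2 against Hdac4HET, when the arrays high in olfactory bulb markers were set aside, where 4 genes remained called. Dusp4 and Dusp5 entered the calls of R6/2 against WT, and Dusp4 those of Dble::R6/2 against WT, without the arrays whose sex-linked genes went against the label. In R6/2 or WT the only such array was WT replicate 9. Dusp5 also entered those of R6/2 against WT with quantile normalization, at -0.42 (limma adjusted p = 0.000887), and with array weights, at -0.38 (limma adjusted p = 0.00211). With 1 array left out at a time, 4 to 6 genes were called in R6/2 against WT, 5 to 6 in Dble::R6/2 against Hdac4HET, 4 to 5 in Dble::R6/2 against WT and 0 in the other comparisons. Dusp4 entered the R6/2 against WT calls without WT replicate 3 or 9 or R6/2 replicate 5, and Dusp5 without WT replicate 3, 4 or 9 or R6/2 replicate 4, 5, 7 or 8. Dusp4 entered those of Dble::R6/2 against WT without WT replicate 9, and left those of Dble::R6/2 against Hdac4HET without Hdac4HET replicate 7, at -0.38. Same-numbered mice of different genotypes showed no shared variation over all probe sets (median correlation of their deviations 0.009, against 0.001 for other numbers, range -0.27 to 0.22). The main fit did not treat them as paired, and this check cannot tell what the numbers record. With the replicate block the counts were 4 in R6/2 against WT, 6 in Dble::R6/2 against Hdac4HET, 4 in Dble::R6/2 against WT and 0 in the others. The t-test and the fit of only the genotypes compared were not run for the interaction.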
